A study of Mus musculus with 12 samples.

Results

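Iron handling in the neonatal liver was followed through 10 genes, matched by symbol among the 32285 genes of the count tables. They were the hormone hepcidin (Hamp), transferrin (Trf), the transferrin receptors Tfrc and Tfr2, the iron exporter ferroportin (Slc40a1), the importer DMT1 (Slc11a2), the ferritin heavy and light chains (Fth1 and Ftl1), and the ligands Bmp6 and Bmp2. Single-cell RNA-seq had been made from the livers of C57BL6/J pups at day 11, with 6 naive control and 6 anemic animals and 1 library per animal. For phlebotomy-induced anemia, 20 µL of blood per g of body weight had been taken from the facial vein on days 2, 4, 6, 8 and 10 until the hematocrit reached 20 to 24%. Control pups lost no blood and received needle sticks only. Livers were dissociated enzymatically, and 6.93% of the 206146 kept cells could be named hepatocyte-like, so that the hepatocytes measured are few beside those of an intact liver. The study set out to compare immune cells, and the litter of each pup is not given in the sources used here.

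Liver cells both store iron and set how much of it enters the blood. Hepatocytes secrete hepcidin, which binds ferroportin and causes its loss from the surface of macrophages and other cells, so that iron stays inside them. Bmp2 and Bmp6, made by liver endothelium, raise Hamp transcription through BMP receptors and SMAD proteins, inflammation raises it through STAT3, and erythroferrone (Erfe), a hormone of erythroblasts, lowers it. Transferrin carries iron to Tfrc on erythroid precursors, Tfr2 senses transferrin-bound iron on hepatocytes, and ferritin holds the iron that is stored. Macrophages of the liver take up old red cells and return their iron through ferroportin. In cells that lack iron, iron regulatory proteins bind short hairpins, the iron-responsive elements, in the messenger RNAs of several of these genes. In a leader (5′ UTR) they hold back translation, and in the tail (3′ UTR) of Tfrc they protect the transcript.

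Since these hairpins tie several of the genes to cell iron, they were looked for in GENCODE M21 transcripts (GRCm38) as an unpaired C, 5 bases, the loop CAGTG followed by A, C or T, and 5 bases that pair with the first 5, on the transcribed strand only. The pattern misses hairpins with a mismatch or a bulge in those 5 pairs, so a gene without a match may still hold one. A match stood in 4 of the 10 genes, against 123 of 21877 protein-coding genes (0.562%), of which 23 held it in a 5′ UTR and 100 in a 3′ UTR. The 4 were both ferritin chains and ferroportin in the 5′ UTR and Tfrc in the 3′ UTR, where it occurred 4 times. Each is printed as DNA with 6 bases on either side of the match, and capitals mark the loop. The strand and position of each, in GRCm38, stand after its gene.
Fth1, 5′ UTR, plus strand, chr19:9982732-9982760: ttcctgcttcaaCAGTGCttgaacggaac
Ftl1, 5′ UTR, minus strand, chr7:45459779-45459807: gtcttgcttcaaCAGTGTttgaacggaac
Slc40a1, 5′ UTR, minus strand, chr1:45925465-45925493: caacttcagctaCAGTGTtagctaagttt
Tfrc, 3′ UTR, plus strand, chr16:32631219-32631247: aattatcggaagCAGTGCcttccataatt
Tfrc, 3′ UTR, plus strand, chr16:32631598-32631626: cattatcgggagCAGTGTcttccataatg
Tfrc, 3′ UTR, plus strand, chr16:32631663-32631691: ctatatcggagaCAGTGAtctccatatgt
Tfrc, 3′ UTR, plus strand, chr16:32631710-32631738: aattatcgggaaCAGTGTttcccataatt
The hairpins act mostly after transcription, and RNA counts do not measure protein.

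Cells were grouped without using the 10 genes, and groups were named from marker genes. Libraries held 46252146 to 65960679 UMIs (unique transcript molecules) in controls and 52021617 to 74545930 in anemic mice. Hepatocyte-like, macrophage-like, endothelial-like and erythroid-like cells made up 46.2% of kept cells, with 14295, 23424, 26443 and 31170 cells. Erythroid-like cells were 7.09% ± 4.56 (SD, n = 6) of a control library and 22.1% ± 7.34 of an anemic one. In each of the 4 classes all 10 of its own markers were detected. This does not test the names, which came from these markers, and nearly all markers of other cells had UMIs there too. Between 4.5% and 5.41% of the cell barcodes of a library also occurred in another library. Levels are given in CPM, which puts every mouse and class on 1 common total of UMIs, so that a change per cell and a changed mix of cells within a class cannot be told apart in it. In pairs of the 4 main classes 91.3%, 90.8%, 85.2%, 82.3%, 90.9% and 88.5% of tested genes differed in level, so a difference between classes is common. The libraries of anemia 2 and anemia 3 stood apart in several results, which are also given without them.

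Hamp was sparse in every class, with its highest mean levels in hepatocyte-like and cholangiocyte-like cells. It reached 3.70 ± 3.28 CPM (SD, n = 12) in the former and 3.93 ± 6.52 CPM in the latter, where anemia 1 and anemia 4 gave 13 and 9 of its 29 UMIs. These classes did not differ beyond the spread over mice (limma on differences within mice, adjusted p = 0.46). Of the 705 cholangiocyte-like cells, 83.0% were called doublets (barcodes that look like mixtures of cells), against 14.0% of hepatocyte-like cells. With doublets left out, 2 Hamp UMIs remained in 120 cholangiocyte-like cells, too few for a level, while hepatocyte-like cells had 3.58 ± 3.63 CPM. The other 12 classes lay at or below 0.65 CPM. Among cells of at least 1000 UMIs, thinned to 1000, 0.548% of control hepatocyte-like cells held a Hamp UMI, against 0.0443% of control B-like cells. B-like cells should make none. Of control cells, 4350 hepatocyte-like and 7912 B-like ones were used, and 2065 and 1240 below 1000 UMIs were left out. The unthinned shares, over all cells, were 0.887% and 0.0645%.

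The carrier Trf reached 27911 ± 3585 CPM in hepatocyte-like cells, its known source, and 1366 ± 525 CPM in the next class, macrophage-like cells (adjusted p = 1.5e-12). Hepatocyte RNA also occurred in other classes, and albumin (Alb), another hepatocyte gene, serves as its measure. Whether it was free in the suspension or in doublets (barcodes that look like mixtures of cells) was not tested. In B-like, endothelial-like, erythroid-like and neutrophil-like cells, Trf stood at a median of 1.18, 1.11, 0.98 and 1.12 times what their Alb would carry along, so those levels are read as background. With called doublets left out, Trf went from 1182 to 672, from 384 to 317, from 778 to 722 and from 824 to 655 CPM in these 4 classes. In macrophage-like cells that ratio was 4.03 (2.13 to 5.08 over mice), above 1 in all 12 mice. It was also above 1 in all 12 mice in monocyte-like (median 1.45) and basophil-like cells (1.52), and in 11 mice in NK-like (1.31) and dendritic-like cells (1.34).

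The receptor Tfrc was spread over many classes, and Tfr2 was not. Tfrc, which takes transferrin into cells, was at 192 ± 89.9 CPM in erythroid-like and 170 ± 17.7 CPM in macrophage-like cells, which did not differ beyond their spread (adjusted p = 0.84). Pre-B-like (154 CPM), B-like (103 CPM) and hepatocyte-like cells (73.5 CPM) followed, each below the one before (adjusted p = 0.017, 1.6e-07 and 0.00060). The lowest were endothelial-like (42.7 CPM), stellate-like and basophil-like cells. With called doublets left out, Tfrc was at 157 ± 108 CPM in erythroid-like and 183 ± 19.8 CPM in macrophage-like cells. Tfr2 was at 112 ± 24.0 CPM in hepatocyte-like cells and at 9.39 CPM in erythroid-like cells, the next class (adjusted p = 1.5e-16). With called doublets left out, Tfr2 was at 110 CPM in hepatocyte-like and 5.38 CPM in erythroid-like cells. Basophil-like cells were then at 8.53 CPM, from 9 UMIs. With doublets kept, the median of Tfr2 was 3.50 times what Alb would carry in erythroid-like cells and 0.92 times in macrophage-like cells.

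Ferroportin marked the macrophage-like class. Slc40a1 was at 1404 ± 251 CPM there and at 181, 180 and 156 CPM in neutrophil-like, hepatocyte-like and stellate-like cells. The step from the first to the next class was called (adjusted p = 8.4e-13), and neutrophil-like and hepatocyte-like cells did not differ beyond their spread (adjusted p = 0.85). Endothelial-like cells had 77.0 CPM and erythroid-like cells 40.9 CPM, or 79.4 and 22.2 CPM with called doublets left out. Macrophage-like cells held 82.9% ± 2.78 of all Slc40a1 UMIs of a control liver suspension and 78.1% ± 4.00 of those of an anemic one. The importer Slc11a2, which moves iron out of endosomes, was low everywhere, with 43.7 CPM in macrophage-like, 39.6 in T-like and 38.1 in pre-B-like cells, neighbours that did not differ beyond their spread (adjusted p = 0.23 and 0.67). Hepatocyte-like and erythroid-like cells had 14.9 and 16.6 CPM, or 14.0 and 11.0 CPM with called doublets left out.

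Both ferritin chains were abundant in all classes. Fth1, the chain that oxidises iron, was at 10575 ± 9640 CPM in monocyte-like, 9912 in neutrophil-like and 9137 ± 5044 in macrophage-like cells, neighbours that did not differ beyond their spread (adjusted p = 0.61 and 0.30). Anemia 2 and anemia 3 had the highest Fth1 in all 3 classes, and in controls alone the means were 8109 CPM in neutrophil-like, 7793 in dendritic-like, 7491 in macrophage-like and 6990 CPM in monocyte-like cells. Over all mice Fth1 was at 6225 CPM in hepatocyte-like, 3505 in erythroid-like and 1352 CPM in endothelial-like cells, the lowest of 14. Ftl1, the chain that helps the mineral form, was highest in macrophage-like cells, with 6900 ± 775 CPM, above the basophil-like cells that came next (adjusted p = 0.00050). Hepatocyte-like cells had 2940, erythroid-like cells 1732 and endothelial-like cells 1294 CPM.

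Both ligands were higher in endothelial-like than in hepatocyte-like cells, where Bmp6 was at 0.63 CPM. Bmp2 was at 263 ± 41.0 CPM in endothelial-like and 136 CPM in stellate-like cells, which differed (adjusted p = 9.5e-08), and at 3.29 CPM in hepatocyte-like cells. Doublets were called for 61.9% of stellate-like and 14.4% of endothelial-like cells, and without them Bmp2 was at 50.5 ± 31.7 and 277 ± 43.0 CPM in these classes. Bmp6 was at 61.4 ± 33.9 CPM in the rare cholangiocyte-like and 42.5 ± 14.9 CPM in endothelial-like cells, which did not differ beyond their spread (adjusted p = 0.31). Without doublets it was at 41.5 ± 15.4 CPM in endothelial-like cells, and the 120 cholangiocyte-like cells left gave 55.2 ± 97.2 CPM from 53 UMIs. Endothelial-like cells held 73.0% of the Bmp2 and 60.9% of the Bmp6 UMIs of a control suspension.

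**Figure D1:**
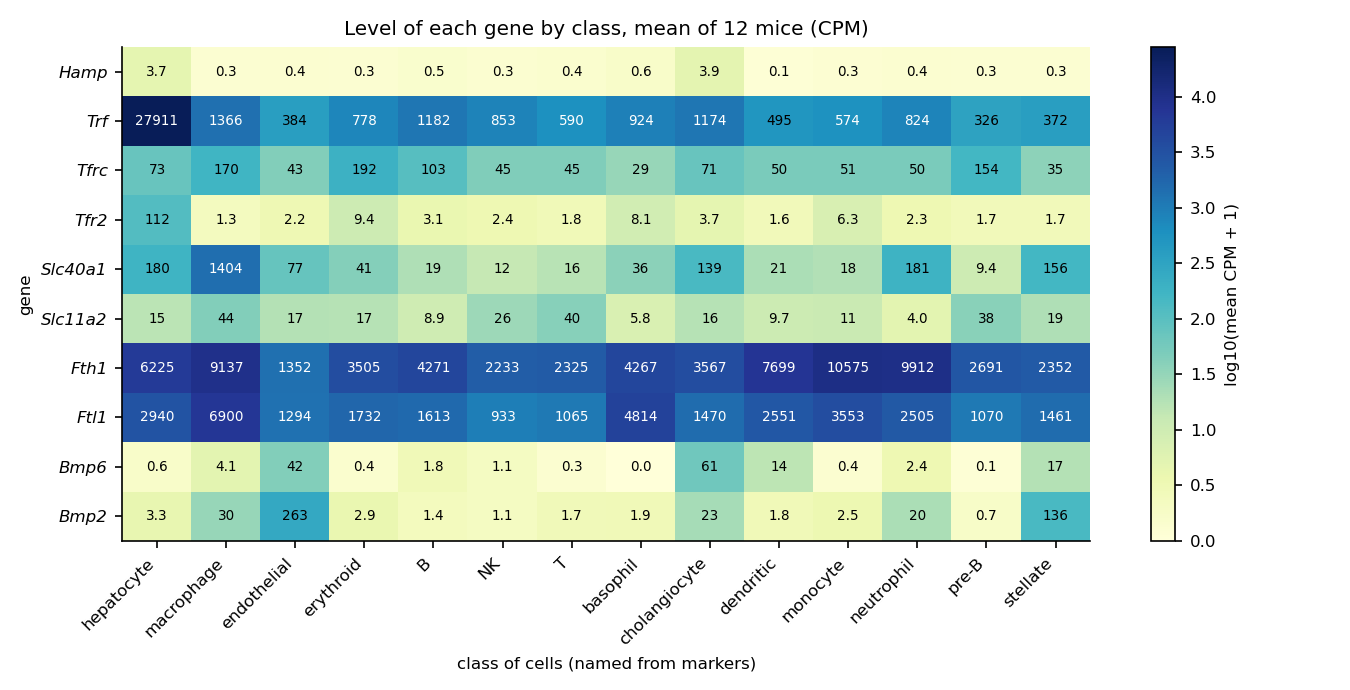
Mean level of each of the 10 genes (rows) in 14 classes of cells (columns), in CPM over 12 mice. The value is printed in each field, and the colour follows a log scale shared by all genes. Trf and Tfr2 are highest in the hepatocyte-like column, Slc40a1 and Ftl1 in the macrophage-like column and Bmp2 in the endothelial-like column.

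In hepatocyte-like cells of anemic mice, ferritin and transferrin transcripts were higher and hepcidin and Tfr2 transcripts lower than in controls. Of the 9 genes that could be tested, 6 were called (edgeR quasi-likelihood test, Benjamini-Hochberg adjusted p under 0.05 over all genes of the class), 4 higher and 2 lower. That count has to be read against a background of 44.6% of the 11221 tested genes called in this class, 21% higher and 23.5% lower. CPM of the groups did not overlap for 4 of the 10 genes, 3 of them higher in anemia, against 23% of tested genes, with 7.58% higher and 15.4% lower. The median log2 fold change was -0.04 over the 9 genes and -0.07 over all tested genes.

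The hormone was scarce in these cells. Hamp had 22, 16, 6, 17, 23 and 14 UMIs in controls 1 to 6, and 0, 3, 2, 0, 9 and 4 UMIs in anemic mice 1 to 6. In CPM, controls ranged from 2.08 to 8.73 and anemic mice from 0 to 2.43, and 4 of the 6 anemic mice were below every control. Hamp fell by 2.28 ± 0.54 on the log2 scale (SE, edgeR, adjusted p = 0.0025). The whole result rests on 98 control and 18 anemic UMIs. Anemic mice alone did not reach the mean of 5 UMIs per mouse asked for a test. Hamp thus entered the test through its control UMIs. Among cells of at least 1000 UMIs, the thinned share with a Hamp UMI went from 0.548% ± 0.275 to 0.112% ± 0.110. In B-like cells it was 0.0443% and 0.0664%. Of hepatocyte-like cells, 2065 control and 2491 anemic ones were below that depth and left out. Over all hepatocyte-like cells the unthinned shares were 0.887% and 0.191%. The thinned anemic share is thus near that of B-like cells, which should lack the gene. In anemic macrophage-like and endothelial-like cells it was 0.021% and 0.034%.

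Fth1 showed the largest gain of the 10. It ranged from 3393 to 4386 CPM in controls (median 3679) and from 6025 to 10884 CPM in anemic mice (median 8864). Every anemic mouse stood above every control, and Fth1 rose by 1.33 ± 0.11 (log2 fold change ± SE, edgeR, adjusted p = 3.3e-07). Ftl1 ranged from 1857 to 2821 CPM in controls (median 2005) and from 3395 to 4143 CPM in anemic mice (median 3754). It rose by 0.96 ± 0.11 (edgeR, adjusted p = 3.7e-06), again without overlap.

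Transferrin and its sensor moved in opposite directions at the level of the class. Trf was between 22385 and 26967 CPM in controls and between 27380 and 34979 CPM in anemic mice, and rose by 0.38 ± 0.10 (edgeR, adjusted p = 0.0045). Tfr2 was between 121 and 148 CPM in controls and between 78.2 and 113 CPM in anemic mice, and fell by 0.39 ± 0.10 (edgeR, adjusted p = 0.0054). Neither gene overlapped between the groups. Slc40a1 had 140 to 171 CPM in controls and 161 to 234 CPM in anemic mice, with 4 anemic mice above all controls, and rose by 0.44 ± 0.11 (edgeR, adjusted p = 0.0031). In an exact two-sided permutation test on log2(CPM + 1), adjusted over the 40 tests of the 10 genes in the 4 main classes, Slc40a1 did not pass (0.28, p = 0.035, adjusted p = 0.099), while the other 5 called genes did (adjusted p = 0.022 to 0.037). Tfrc (log2 fold change -0.34, adjusted p = 0.095), Bmp2 (-0.88, 0.088) and Slc11a2 (-0.04, 0.88) did not pass the test, and Bmp6 was too scarce, with 23 UMIs in 12 mice.

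**Figure D2:**
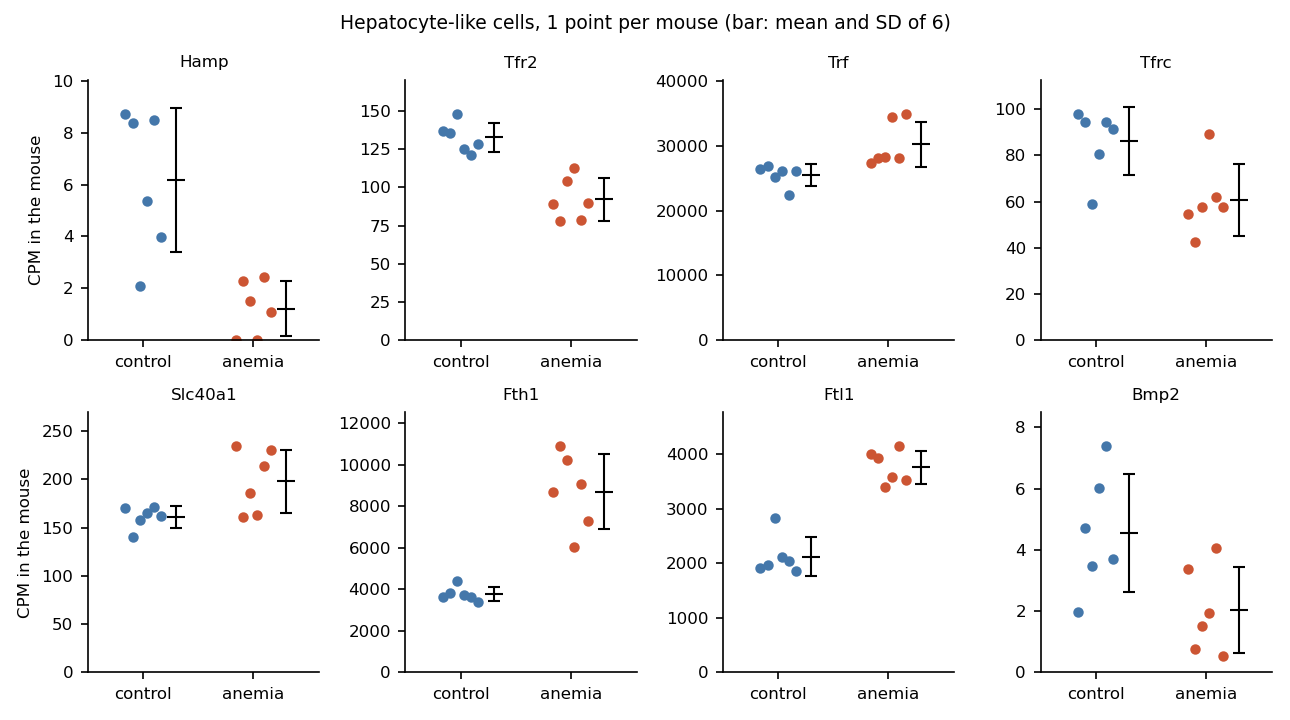
CPM of Hamp, Tfr2, Trf, Tfrc, Slc40a1, Fth1, Ftl1 and Bmp2 in hepatocyte-like cells, with 1 point per mouse for 6 control and 6 anemic mice and a bar for the mean and SD. Points of the groups are apart for Trf, Tfr2, Fth1 and Ftl1, and 4 of 6 anemic points lie below all control points for Hamp.

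The mix of cells in the class also differed between the groups. The hepatocyte-like class was made of 4 clusters. One of them, cluster 23, led by Apob, Cps1 and Itih2 and with a median mitochondrial share of 16.4%, was 32.1% ± 3.65 of control and 16% ± 3.28 of anemic hepatocyte-like cells. Cluster 24, led by Uox, Gnmt and Ass1, was 14.1% ± 4.51 and 28.0% ± 5.40. In controls, Tfr2 was at 206 CPM in cluster 23 and 13.7 CPM in cluster 24, and Fth1 at 1511 and 9310 CPM. The cluster that was rarer in anemic mice was thus high in Tfr2 and low in Fth1, and the part of the mix in the class-level results was not tested. Cells with at most 10% mitochondrial UMIs were 67.0 to 72.8% of the class in controls and 79.8 to 87.3% in anemic mice.

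Within clusters only Fth1 kept its call everywhere. Its log2 fold changes were 0.79, 0.58, 0.61 and 0.61 in clusters 13, 23, 24 and 35, called in all 4, where 5.88%, 4.92%, 4.76% and 5.28% of tested genes were called. Trf was 0.39, 0.30, 0.39 and 0.42, close to the value of the class, and was called in clusters 23 and 35 (adjusted p = 0.025 and 0.0065). Ftl1 was 0.43, 0.09, 0.35 and 0.30 with no call. Slc40a1 lay between -0.09 and 0.21 with no call. Tfr2 was 0.67, 0.33, -0.30 and 0.20 with no call, so that it was lower in the class while it was positive in 3 of 4 clusters.

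Hamp could be tested only in cluster 23, with 73 control and 11 anemic UMIs. Anemic mice alone did not reach the mean asked for a test there either. The log2 fold change of Hamp in that cluster, -1.47, did not pass the test (edgeR, adjusted p = 0.22). The other clusters held 12 and 6, 7 and 0, and 6 and 1 control and anemic UMIs. In cells with at most 10% mitochondrial UMIs, 2 of 8 tested genes, Fth1 (0.93) and Ftl1 (0.58), were called beside a background of 20.9% of 10121 genes, while Trf (0.24, adjusted p = 0.17), Slc40a1 (0.26, 0.088) and Tfr2 (-0.15, 0.56) were not, and Hamp was too scarce. At Leiden resolution 1 the Tfr2 call was lost as well (-0.23, adjusted p = 0.11).

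The scaling also mattered. Without the TMM factors (which correct for a few abundant transcripts) the median of all genes in this class shifted from -0.07 to -0.27, the calls over all genes from 2360 higher and 2642 lower to 1406 and 4006, and the 6 calls among the 10 genes to 2 higher and 4 lower. Fth1, Ftl1, Tfr2 and Hamp kept their calls, Tfrc and Bmp2 became lower in anemia, and Trf (adjusted p = 0.078) and Slc40a1 (0.084) lost theirs. Red cell RNA moved with the groups too: the 10 erythroid markers together were at 1247 to 6837 CPM in control and 7522 to 17781 CPM in anemic hepatocyte-like cells. Some marker lists of other cells were lower in anemia, with 8 stellate markers at 109 to 132 and 28.9 to 76.6 CPM, 8 monocyte markers at 1089 to 1333 and 584 to 873 CPM, and 10 endothelial markers at 155 to 260 and 60.7 to 182 CPM. The monocyte list was at only 42.0 to 84.7 CPM in control endothelial-like and 52.3 to 74.0 CPM in control erythroid-like cells. Which cells its UMIs in the hepatocyte-like class came from was not tested, so they are not read as monocyte RNA. The part of these marker lists in the results was not tested, and with globin genes left out the same number of genes, 6, was called. Without anemia 2 and anemia 3 the count was 6 as well. Cluster 22 was left unnamed for its low depth (median 679 UMIs per cell) and for having none of the hepatocyte markers among its leading genes, and was 0.86% of control and 2.28% of anemic cells. With it added to the class 8 of 9 genes were called, 4 higher and 4 lower (background 46.7%), as Tfrc (-0.41, edgeR, adjusted p = 0.0497) and Bmp2 (-0.91, 0.045) then passed.

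**Figure D3:**
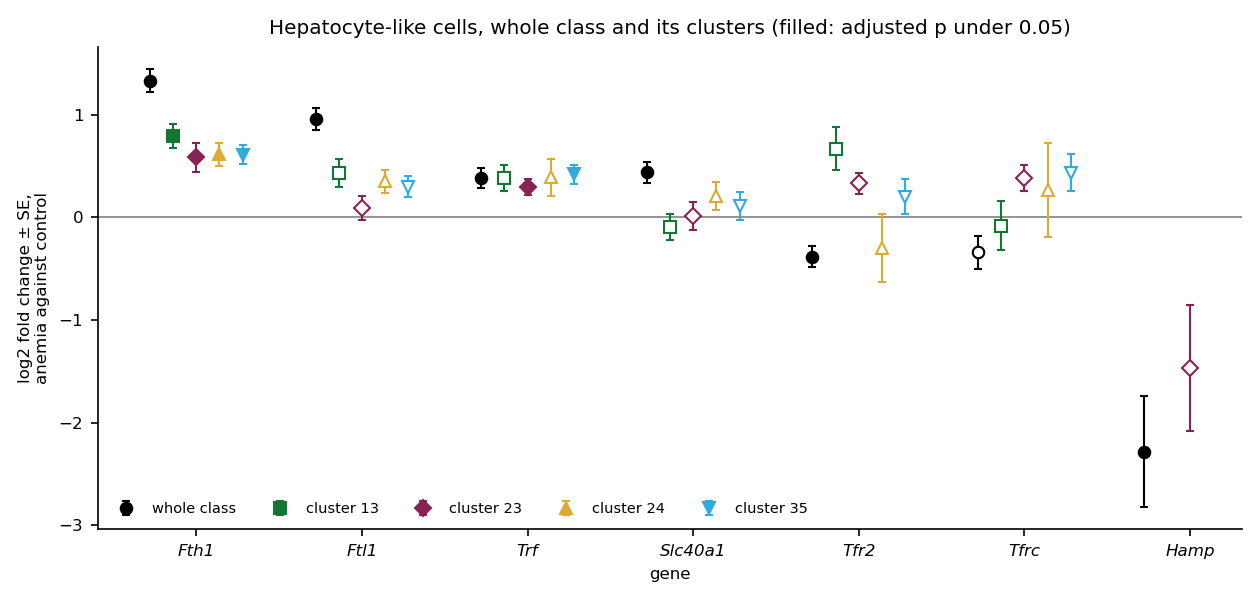
Log2 fold change ± SE (vertical axis) of Fth1, Ftl1, Trf, Slc40a1, Tfr2, Tfrc and Hamp in hepatocyte-like cells. Points are given for the whole class and for its clusters 13, 23, 24 and 35 where tested, and are filled where the adjusted p is under 0.05. Fth1 is filled and positive throughout, and Tfr2 is below 0 for the class and above 0 in 3 clusters.

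Mice carry a second hepcidin gene, Hamp2, which lies beside Hamp on chromosome 7 and whose product is not held to regulate iron. It had 6, 4, 7, 3, 21 and 3 UMIs in hepatocyte-like cells of controls and 0, 2, 2, 1, 4 and 3 in anemic mice, too few for the test, and since the transcripts are near copies, UMIs could be split between them. The upstream sequences are shown because BMP and STAT3 signals act on Hamp there. RefSeq windows of 109 bases (GRCm38.p6, minus strand) were identical at 98 bases (89.9%). Capitals mark the BMP response element core GGCGCC, which lies 109 to 104 bases before the Hamp start, its counterpart in Hamp2, and a match to the STAT motif TTCNNNGAA in both.
Hamp, chr7:30944051-30944159: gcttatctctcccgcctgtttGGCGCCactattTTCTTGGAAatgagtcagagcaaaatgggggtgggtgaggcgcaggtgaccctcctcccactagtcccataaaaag
Hamp2, chr7:30924200-30924308: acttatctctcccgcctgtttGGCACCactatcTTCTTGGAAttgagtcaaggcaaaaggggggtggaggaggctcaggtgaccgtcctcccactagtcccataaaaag
Counted from the first base shown, Hamp2 differs in the core by G25A. GGCGCC occurred on either strand in 11.9% and TTCNNNGAA in 8.30% of 32851 RefSeq promoter windows of the same kind, so either match is common.

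Other genes that feed into hepcidin were lower or did not pass in hepatocyte-like cells of anemic mice, with 10 of 21 called lower, beside 23.5% of all tested genes. Of 63 further genes of iron handling, 54 could be tested there, and 28 were called, 8 higher and 20 lower, beside backgrounds of 44.6%, 21% and 23.5%. Their median log2 fold change was -0.34. Without TMM factors 37 were called, 7 higher and 30 lower, with a median of -0.55. Of 10 ligands and receptors of hepcidin control, 6 were lower and none higher, among them Neo1 (-1.09, adjusted p = 0.00011), which anchors the BMP co-receptor, the protease Tmprss6 (-0.95, 1.1e-05), which cleaves that co-receptor, and the BMP type I receptor Acvr1 (-0.94, 3.1e-05). The co-receptor hemojuvelin itself, Hjv, did not pass (-0.08, adjusted p = 0.70). Of 11 genes of signalling and BMP targets, 4 were lower, with Stat3 at -1.10 (adjusted p = 5.4e-06).

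In heme handling, 4 of 9 were lower, including Flvcr2 (-1.37) and heme oxygenase Hmox1 (-1.12), and 1 was higher. In uptake and reduction, 3 of 6 were lower, including the ferrireductase Steap4 (-1.27), and the siderophore-binding protein Lcn2 rose by 4.51 ± 0.81 (edgeR, adjusted p = 0.00028). Lcn2 reached 1005 and 1865 CPM in anemia 2 and anemia 3, 55.7 to 188 CPM in the other anemic mice and 13.9 to 34.0 CPM in controls, and without those 2 mice its log2 fold change was 2.16. Of 8 genes of mitochondrial iron and iron-sulfur clusters, 5 were higher and 1 lower. Within single clusters of hepatocyte-like cells, 2 to 6 of 35 to 53 tested genes of the list were called, beside backgrounds of 4.76% to 5.88%. Unlike in the class, more of them were higher than lower, with 3 higher and 1 lower in cluster 13, 5 and 1 in cluster 23, 2 and 0 in cluster 24, and 2 and 1 in cluster 35. In cells with at most 10% mitochondrial UMIs 17 of 52 were called, 5 higher and 12 lower, beside a background of 20.9%. Hmox1 (-0.79, edgeR, adjusted p = 0.089) and Steap4 (-0.66, 0.19) did not pass in those cells.

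In macrophage-like cells none of the 9 tested genes was called by edgeR, and no gene of the 10 was free of overlap, beside backgrounds of 4.57% of 15531 tested genes called (2.27% higher and 2.3% lower) and 4.34% without overlap (1.07% higher and 3.27% lower). The median log2 fold change was -0.14 over the 9 genes and 0.03 over all. At an unadjusted p under 0.05, 1 gene stood out, Slc11a2 (-0.33, adjusted p = 0.19), which was below all controls in 5 of 6 anemic mice. DESeq2 and limma voom also called none. Without TMM factors the calls over all genes went from 353 higher and 357 lower to 261 and 501. Of the marker lists named for other cells, all detected, 8 monocyte markers together were at 1063 to 1615 CPM in control and 1084 to 3638 CPM in anemic macrophage-like cells. That list holds Lyz2, which the paper uses as a marker of its non-inflammatory macrophages. The 10 erythroid markers were at 656 to 4681 and 3116 to 11755 CPM, and 10 hepatocyte markers at 1658 to 2696 and 349 to 1796 CPM. The part of these lists in the results was not tested.

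Fth1 set anemia 2 and anemia 3 apart. Their levels were 20303 and 19354 CPM, while the other 4 anemic mice lay between 6127 and 6500 CPM, below every control (6899 to 8043 CPM). The log2 fold change of 0.68 (edgeR, adjusted p = 0.26) turned to -0.20 (adjusted p = 0.19) without those 2 mice. The same 2 mice had the highest Fth1 of the monocyte-like cells, with 38691 and 19525 CPM against 5434 to 8850 CPM in the other 10. Ftl1 did not share the pattern, with 6751 to 8690 CPM in controls and 5525 to 6975 CPM in anemic mice, 5 of them below all controls. Its log2 fold change was -0.09 ± 0.11 by edgeR (adjusted p = 0.63), while on log2(CPM + 1), without TMM factors, the difference of -0.21 gave p = 0.0065 in an exact two-sided permutation test, or 0.037 adjusted over 40 such tests.

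Ferroportin was lower in most anemic mice, but within the spread of the fit. Slc40a1 was between 1453 and 1631 CPM in controls, and at 1388, 716, 1287, 1288, 1620 and 1290 CPM in anemic mice 1 to 6, 5 of them below all controls. Its log2 fold change was -0.19 ± 0.13 (edgeR, adjusted p = 0.40). On log2(CPM + 1) an exact two-sided permutation test gave p = 0.017 for Slc40a1, or 0.069 when adjusted over the 40 such tests, where 0.0022 is the smallest unadjusted p possible. Cluster 19, led by Serpinb2, Prg4 and Saa3, was 5.11% ± 2.85 of control and 24.3% ± 25.1 of anemic macrophage-like cells, up to 63.9% in 1 mouse, and had 724 CPM of Slc40a1 in controls, against 1778 CPM in cluster 3, the largest. Within the 5 clusters tested, Slc40a1 lay between -0.07 and -0.02 on the log2 scale. No gene of the 10 was called in clusters 3, 6, 19, 37 or 44, where 2.94%, 0.486%, 0%, 5.59% and 0.232% of tested genes were, and 1 anemic mouse had too few cells for clusters 3 and 44. Cluster mix and ferroportin thus moved together, and the part of the mix was not tested.

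Of the other iron genes, 56 were tested in macrophage-like cells and 2 were called, a share no higher than the background of 4.57%. The reductase Steap2 rose by 1.67 ± 0.26 (edgeR, adjusted p = 0.0042), from 1.10 to 2.80 CPM in controls to 3.27 to 8.45 CPM in anemic mice. Lcn2 rose by 2.33 ± 0.59 (edgeR, adjusted p = 0.040), with 13.1 and 19.5 CPM in anemia 2 and anemia 3 and at most 2.99 CPM elsewhere. Without those 2 mice the Lcn2 call was lost (0.69, adjusted p = 0.10), and it was lost in 8 of 12 fits that left out 1 mouse, any of the 6 controls included.

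**Figure D4:**
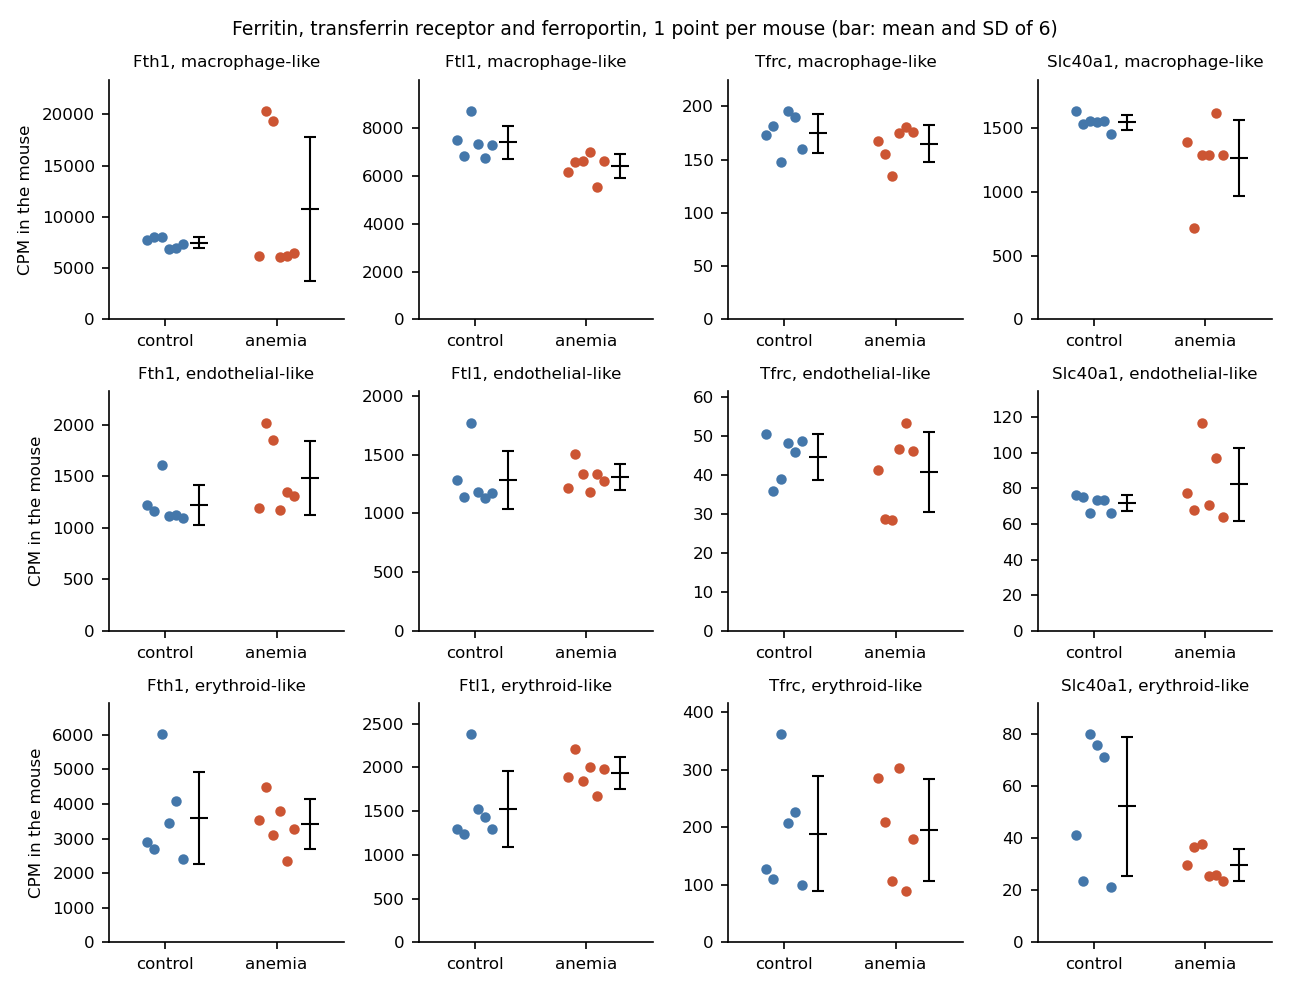
CPM of Fth1, Ftl1, Tfrc and Slc40a1 (columns) in macrophage-like, endothelial-like and erythroid-like cells (rows), 1 point per mouse with the mean and SD of 6. The 2 high points of macrophage-like Fth1 are anemia 2 and anemia 3, at 20303 and 19354 CPM, and the low point of Slc40a1 is anemia 2, at 716 CPM.

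The endothelial-like class, source of the BMP ligands, had none of 9 tested genes called by edgeR, beside a background of 17.8% of 17021 tested genes (7.64% higher and 10.1% lower). No gene of the 10 was free of overlap, against 10.1% of tested genes (2.03% higher and 8.08% lower). The median log2 fold change was 0.03 over the 9 genes and 0.01 over all. Unadjusted p values were under 0.05 for 4 genes, Bmp6, Fth1, Slc40a1 and Tfr2, and DESeq2 and limma voom each called 1, Fth1. Without TMM factors the calls over all genes went from 1301 higher and 1721 lower to 850 and 2806. In this class 10 erythroid markers together were at 790 to 2538 CPM in controls and 3579 to 7558 CPM in anemic mice, 10 hepatocyte markers at 1975 to 3478 and 422 to 2082 CPM, and 8 monocyte markers at 42.0 to 84.7 and 60.3 to 229 CPM. All these markers were detected, and their part in the results was not tested.

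Bmp6, the ligand that follows liver iron, was at 27.6 to 40.4 CPM in controls. In anemic mice 2, 3 and 5 it was at 66.9, 68.8 and 62.6 CPM, and in mice 1, 4 and 6 at 29.2, 30.0 and 37.3 CPM, within the control range. The log2 fold change of 0.56 ± 0.22 did not pass (edgeR, adjusted p = 0.097), and was 0.24 without anemia 2 and anemia 3. It passed when anemia 1 (0.68, adjusted p = 0.042) or anemia 4 (0.68, 0.044) was left out. Bmp2 was at 251 to 307 CPM in controls and 190 to 326 CPM in anemic mice, 5 of them below all controls, with a log2 fold change of -0.14 ± 0.10 (edgeR, adjusted p = 0.38). Fth1 was at 1093 to 1607 CPM in controls and 1178 to 2021 CPM in anemic mice (0.40 ± 0.16, adjusted p = 0.097).

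In single endothelial-like clusters 5 differences were called, and whether they differ from the value of the class was not tested. In cluster 32, led by Ccl21a, Thsd7a and Mecom, Bmp6 was at 46.0 to 78.4 CPM in controls and 82.1 to 137 CPM in anemic mice, without overlap, and rose by 0.91 ± 0.15 (edgeR, adjusted p = 0.010), where 0.884% of tested genes were called. The level of Bmp6 there (59.4 CPM in controls) was above that of the other 7 clusters, and Bmp2 (86.6 CPM) was the lowest of the 8. In cluster 9, led by Dnase1l3 and Clec4g, Bmp2 fell by 0.37 ± 0.11 (adjusted p = 0.031, background 13.9%). In cluster 4, led by Clec4g and Stab2, Slc40a1 rose by 0.45 ± 0.12 and Fth1 by 0.38 ± 0.13 (adjusted p = 0.011 and 0.049, background 18.4%), and in cluster 33, Fth1 rose by 0.74 ± 0.19 (adjusted p = 0.010, background 15.7%). Clusters 25, 38, 50 and 52 held no call of the 10 genes, with backgrounds of 12.8%, 7.69%, 1.22% and 2.61%. Across the 8 clusters Bmp6 had log2 fold changes from -0.61 to 0.91 in the 7 where it was tested. The mix changed as well, with cluster 9 at 35.1% of control and 12.9% of anemic cells and cluster 25, led by Fgf23, Selp and Cfap69, at 5.12% and 22.9%.

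**Figure D5:**
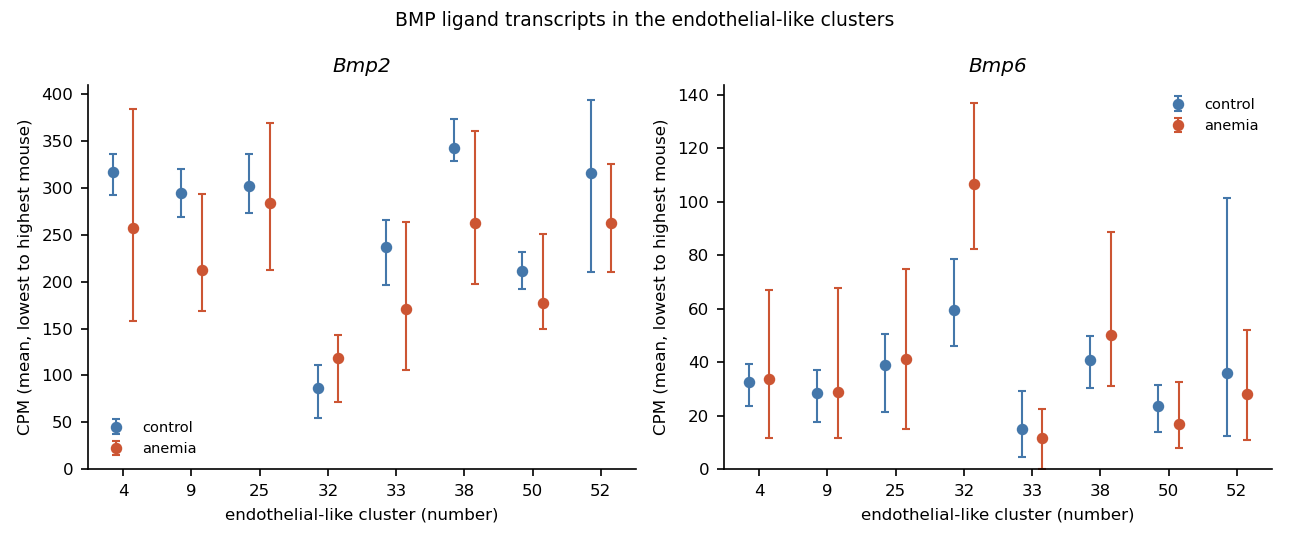
Mean CPM of Bmp6 and Bmp2 in the endothelial-like clusters (horizontal axis, cluster number) for control and anemic mice, with lines from the lowest to the highest mouse. In cluster 32, Bmp6 goes from 59.4 to 107 CPM without overlap, and Bmp2 is lower there than in the other clusters.

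Among 59 tested iron genes in endothelial-like cells 11 were called, 9 higher and 2 lower, beside the background of 17.8% (7.64% higher and 10.1% lower). Without TMM factors 11 were called as well, but 6 higher and 5 lower, and the median of the list went from 0.07 to -0.02. The metalloreductases Steap1 and Steap2 rose by 1.93 ± 0.23 and 1.75 ± 0.14 (edgeR, adjusted p = 0.00013 and 3.2e-06). Steap2 was at 11.5 to 20.4 CPM in controls and 39.9 to 60.1 CPM in anemic mice. Lcn2 rose by 1.80 (adjusted p = 0.0085), or by 1.14 without anemia 2 and anemia 3 (adjusted p = 0.017), and its call was lost with doublets left out (1.27, adjusted p = 0.053) and at Leiden resolution 1 (1.08, adjusted p = 0.10). Of 10 ligands and receptors of hepcidin control, Bmp4 (0.78) and Bmpr2 (0.61) were called, both higher. Of 11 genes of signalling and BMP targets, the SMAD transducer Smad5 (0.29) and the BMP-responsive genes Atoh8 (0.76) and Id3 (0.36) were higher, Stat3 was lower (-0.24, adjusted p = 0.027), and 7 did not pass. The heme exporter Flvcr1 (-0.33, adjusted p = 0.027) was lower too. Without anemia 2 and anemia 3 the calls of Atoh8 (0.59, edgeR, adjusted p = 0.099), Id3 (0.30, 0.072) and Flvcr1 (-0.22, 0.075) were lost, and with doublets left out that of Bmp4 was (0.72, 0.091). Leaving out 1 mouse ended the call of Atoh8 in 7 of 12 fits, of Flvcr1 in 4 and of Id3 in 2. Hjv did not pass there (0.07, adjusted p = 0.94).

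In erythroid-like cells, the users of transferrin iron, none of 8 tested genes was called by edgeR, beside a background of 0.364% of 10431 tested genes (0.345% higher and 0.0192% lower). The groups overlapped for all 10 genes, and 1.49% of tested genes were free of overlap (0.211% higher and 1.28% lower). The median log2 fold change was 0.07 over the 8 genes and 0.01 over all. Unadjusted p values were under 0.05 for Ftl1 and Tfrc, DESeq2 called Ftl1, and limma voom called none. Tfrc was at 100 to 362 CPM in controls and 90.1 to 303 CPM in anemic mice (log2 fold change 0.50 ± 0.16, edgeR, adjusted p = 0.26), and the difference was 0.04 without TMM factors. Trf was at 781 to 1259 CPM in controls and 170 to 895 CPM in anemic mice (-0.57, edgeR, adjusted p = 0.76). On log2(CPM + 1) the Trf difference was -1.15, which passed the exact two-sided permutation test (p = 0.0065, adjusted p = 0.037 over 40 tests). Trf of this class stood near the level that its Alb would carry. Fth1 differed by 0.38 on the edgeR scale (adjusted p = 0.57) and by -0.10 without those factors, and Tfr2 by 0.20 and -0.29. In this class globins made up 45.0 to 76.2% of control and 66.2 to 80.8% of anemic UMIs, and without TMM factors the median of all genes shifted from 0.01 to -0.36 and the calls from 36 higher and 2 lower to 10 and 49. The 10 hepatocyte markers together were at 4547 to 6780 CPM in control and 626 to 3522 CPM in anemic erythroid-like cells, and their part in the results was not tested.

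In single erythroid-like clusters ferritin was called and the receptor was not. Ftl1 rose in 3 clusters led by globin genes, by 0.88 ± 0.15 in cluster 2, 1.12 ± 0.19 in cluster 7 and 1.07 ± 0.14 in cluster 12 (edgeR, adjusted p = 0.00028, 0.00047 and 0.00014), where 5.97%, 7.48% and 6.55% of tested genes were called. In cluster 16 (0.47, adjusted p = 0.073, background 7.14%) and cluster 36 (0.26, adjusted p = 0.49) it did not pass, and cluster 12 lacked 1 control for want of cells. Its mean CPM in clusters 2, 7 and 12 were 1076, 878 and 1081 in controls and 1618, 1580 and 1782 in anemic mice. Fth1 rose in cluster 12 by 0.55 ± 0.13 (adjusted p = 0.013). Tfrc lay mostly in cluster 36, led by Rhd, Slc25a21 and Hemgn, which gave 1202 of 1379 UMIs of the class in controls and 7594 of 8484 in anemic mice. It was at 640 to 917 CPM in controls and 793 to 1157 CPM in anemic mice of that cluster (0.43 ± 0.13, edgeR, adjusted p = 0.22, background 0.278%). That cluster was 10.3% ± 8.97 of control and 6.43% ± 3.97 of anemic erythroid-like cells.

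Erythroferrone was the 1 of 48 tested iron genes called in the class, beside a background of 0.364% of all tested genes. Erfe had 0, 0, 2, 0, 0 and 1 UMIs in erythroid-like cells of controls 1 to 6 and 38, 11, 15, 55, 10 and 15 UMIs in anemic mice 1 to 6. The 2 UMIs of control 3 stood among 326098 UMIs of the class, while anemic mice had 3195643 to 10554595. In CPM the groups thus overlapped, with control 3 no lower than the anemic mice. Controls alone did not reach the mean of 5 UMIs per mouse asked for a test. It rose by 3.35 ± 0.68 (edgeR, adjusted p = 0.040). The call was lost in 9 of 12 fits that left out 1 mouse, with log2 fold changes from 3.05 to 4.66, and the adjusted p was between 0.0048 and 0.20 over the other settings. In cluster 36 alone, 3 control and 140 anemic UMIs gave 3.21 ± 0.63 (adjusted p = 0.031). As a level, Erfe was at 13.7 to 24.6 CPM in anemic mice and 0 to 11.9 CPM in controls of that cluster. Control 3, the mouse with 2 of the 3 control UMIs, also had the highest Tfrc, Fth1, Ftl1 and Slc11a2 of the erythroid-like controls.

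The difference of the anemia effect between classes was tested directly, by limma on log2(CPM + 1) differences within mice, and 6 of 49 comparisons of the 10 genes were called. Hepatocyte-like cells gained more Fth1 and Ftl1 than endothelial-like cells, by 0.92 ± 0.12 and 0.79 ± 0.11 (adjusted p = 0.00014 and 0.00022), where 34.7% of genes differed. The difference for Trf was called as well (0.96 ± 0.31, adjusted p = 0.026). Endothelial-like Trf stood near the level that its Alb would carry, and whether any of it is made in those cells was not tested. Against macrophage-like cells, the hepatocyte-like difference was 0.88 ± 0.25 for Fth1, 1.04 ± 0.13 for Ftl1 and 0.61 ± 0.15 for Slc40a1 (adjusted p = 0.015, 0.00024 and 0.0077), where 31.9% of genes differed. Within single clusters, edgeR log2 fold changes of Slc40a1 were -0.09 to 0.21 in hepatocyte-like and -0.07 to -0.02 in macrophage-like cells. For Ftl1 they were 0.09 to 0.43 and -0.24 to 0.05, and for Fth1 0.58 to 0.79 and 0.16 to 0.95. The part of the cluster mix in the differences between classes was not tested. No comparison with erythroid-like cells was called, where 0.164%, 1.44% and 0.0194% of genes differed, and none of endothelial-like with macrophage-like cells (3.27%).

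In the other 10 classes 3 differences were called. Fth1 fell in pre-B-like cells by 0.31 ± 0.06 (edgeR, adjusted p = 0.018), from 2826 to 3180 CPM in controls to 2065 to 2632 CPM in anemic mice, where 1.44% of 12234 tested genes were called. It rose in stellate-like cells by 0.83 ± 0.21 (adjusted p = 0.015), where anemia 2 and anemia 3 had 4948 and 3853 CPM, the other anemic mice 1973 to 2578 CPM and controls 1496 to 2343 CPM. Bmp2 fell in stellate-like cells by 0.51 ± 0.16 (adjusted p = 0.045), from 106 to 201 CPM to 66.1 to 138 CPM, and 15% of 15066 tested genes were called in that class, 61.9% of whose cells were called doublets.

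Summed over all kept cells of a mouse, Hamp fell by 0.61 ± 0.17 (edgeR, adjusted p = 0.042) and was the only 1 of the 10 called, beside a background of 6.92% of 21187 tested genes (3.17% higher and 3.75% lower). Without TMM factors the calls over all genes went from 672 higher and 795 lower to 447 and 4569, with 3 of the 10 genes lower. That call was lost in 11 of 12 fits that left out 1 mouse. Trf and Tfrc were called instead, as higher, without anemia 2 and anemia 3 (0.55 and 0.28, adjusted p = 0.030 and 0.048). Hepatocyte-like cells held 58.3% of Trf UMIs in controls and 67.4% in anemic mice, and 68.0% and 58.5% of Tfr2 UMIs. Of Hamp UMIs they held 42.5% ± 14.5 in controls and 14.5% ± 15.2 in anemic mice, so most of the summed Hamp lay outside them. Endothelial-like cells held 14.3% and 15.3% of Hamp UMIs, macrophage-like cells 12.3% and 11.3%, and cholangiocyte-like cells 2.64% and 13.3%. Sums of this kind mix levels per cell with the make-up of the suspension, so that fewer cells of a type and less RNA per cell cannot be told apart.

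Over the mean levels of the 14 classes, the genes most like Hamp in pattern were Foxa2 (Pearson r = 0.992), Hnf4a (0.989) and Mmd2 (0.987), as a description across classes that share libraries, among 13744 genes. The Hamp pattern includes the cholangiocyte-like level, from a class in which 83.0% of cells were called doublets and 2 Hamp UMIs remained without them. For Slc40a1 they were Il18bp (0.911), Vcam1 (0.904) and Mertk (0.876), and for Bmp2 they were Majin, Nova2 and Cldn5 (0.994, 0.994 and 0.993). Tfrc had no close likeness, with Tmem14c (0.750), Blvrb (0.740) and Psme3 (0.722) nearest.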

How the data were processed

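As deposited by the authors, values were UMI counts per gene and barcode, from 10x 3′ libraries processed with Cell Ranger 7.0.0 (per the file headers) on mm10, and barcodes had at least 500 UMIs. The labels and the study's methods name different kit versions. Barcodes above 50000 UMIs or with over 50% of UMIs from mitochondrial genes were dropped. Clusters came from 2000 variable genes without the 10 genes, 20 components, 20 neighbours and Leiden resolution 2 (scanpy 1.11.5, leidenalg 0.10.2). Of 62 clusters, 51 were named. A name asked for at least 3 raised markers. It was withheld where classes scored alike, where leading genes pointed to other cells, or where a shallow cluster had no marker among its leading genes. The largest cluster, 0, with 13837 cells, was left unnamed because its pre-B and B scores were alike. Doublets were the cells of each library that scored highest against simulated pairs. Their share of a library (12.1 to 18.2%) was set from its number of barcodes and is not a measured rate. They were kept in the main results and left out as an alternative. Counts were summed per mouse and class and tested with edgeR 4.0.16 (quasi-likelihood, TMM, mean of at least 5 UMIs per mouse, mitochondrial and ribosomal protein genes left out). Levels and effect differences used limma 3.58.1 on log2(CPM + 1). DESeq2 1.42.0 was an alternative. In simulated hepatocyte-like counts 78 of 100 genes changed by 1 and 98 of 100 changed by 2 on the log2 scale were recovered, and in erythroid-like counts 47 and 86. Library totals were 46252146 to 74545930 UMIs, and shares and counts carry counting error beside the spread of mice.

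The members and lists were chosen with earlier results of these data known. Named were the 10 genes, up to 8 called iron genes per class, Erfe, Hjv and Hamp2, and for 4 genes the 3 most alike in pattern. Some stellate clusters and the set without anemia 2 and anemia 3 were decided after the data were seen. By Xist, 4 control and 2 anemic pups were female. Replicate numbers are not stated to pair the mice and were not used as pairs in the main tests.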

Additional observations from a re-analysis of the deposited data

Results flagged for a closer look

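For each of the 10 genes and 4 main classes, a mouse far from the other 5 of its group was looked for by Dixon's test. It picked 8 of 69 groups, where chance picks about 5%. Control 3 gave 5 of the 8, as the highest control: Ftl1 was at 2821 CPM in hepatocyte-like, 1771 CPM in endothelial-like and 2380 CPM in erythroid-like cells, and in endothelial-like cells Fth1 was at 1607 CPM and Tfr2 at 4.31 CPM. Anemia 3 had 25.1 CPM of Slc11a2 in hepatocyte-like cells, where the nearest mouse had 14.7 CPM. Control 2 had 1167 CPM of Trf in macrophage-like cells, below the 1448 CPM of the nearest. Anemia 2 had 716 CPM of Slc40a1 in macrophage-like cells, below the 1287 CPM of the nearest.

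The anemia effect differed between classes, by limma on differences within mice, in 6 cases. Endothelial-like minus hepatocyte-like cells gave -0.79 for Ftl1 (adjusted p = 0.00022), -0.92 for Fth1 (0.00014) and -0.96 for Trf (0.026), where endothelial-like Trf stood near the level that its Alb would carry. Hepatocyte-like minus macrophage-like cells gave 0.61 for Slc40a1 (adjusted p = 0.0077), 1.04 for Ftl1 (0.00024) and 0.88 for Fth1 (0.015). These are differences of whole classes, and the part of their cluster mix was not tested.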

How the results depend on the processing

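In hepatocyte-like cells the count of 6 genes was 6 or 7 when any 1 mouse was left out and 2 in cells with at most 10% mitochondrial UMIs, where 17 of the iron list were called (25 to 28 without 1 mouse). It was 8 with the shallow cluster 22 added, a setting chosen after the data were seen. Leaving out 1 mouse gave 0 of the 10 genes in macrophage-like and erythroid-like cells, 0 to 2 in endothelial-like cells, 1 to 3, 6 to 15 and 0 to 1 iron genes in macrophage-like, endothelial-like and erythroid-like cells, 5 to 7 effect differences, 51 to 52 level differences, and 0 to 1 genes over all kept cells. The iron count in macrophage-like cells was 5 by DESeq2, 4 by limma voom, 4 without anemia 2 and anemia 3 (a set chosen after the data were seen), 1 with Y-linked expression as a covariate, with doublets left out or in cells with a lower share of hepatocyte marker and globin UMIs, and 0 at a mean of at least 50 UMIs or at Leiden resolution 1. In erythroid-like cells it was 3 with no filter, 2 by DESeq2 and by limma voom, and 0 without TMM factors, at 50 UMIs, with doublets left out, in cells with a lower share of hepatocyte marker UMIs and without anemia 2 and anemia 3. Limma voom called 21 iron genes and 1 of the 10 in endothelial-like cells, and DESeq2 called 1 of the 10 there and 1 in erythroid-like cells. A pseudocount of 10 gave 12 effect differences, and all kept cells gave 3 genes without TMM factors and 2 without anemia 2 and anemia 3. The causes were not tested.

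Replicate numbers are not stated to pair the mice, and the deviations of same-numbered mice correlated with r from -0.45 to 0.47. With the replicate block 6, 0, 0 and 0 of the 10 genes and 28, 1, 12 and 0 iron genes were called in hepatocyte-like, macrophage-like, endothelial-like and erythroid-like cells.

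Among called log2 fold changes, signs turned within single hepatocyte-like clusters for Tfr2 (up to 0.67) and Slc40a1 (down to -0.09). Under the other settings signs turned only for log2 fold changes that were not called. Without anemia 2 and anemia 3, Hjv in hepatocyte-like cells was 0.054, and in macrophage-like cells Bmp2 was 0.028, Fth1 -0.20 and Trf 0.33. In endothelial-like cells Slc11a2 was then -0.16 and Tfrc 0.16, and in erythroid-like cells Slc11a2 was 0.0031. At Leiden resolution 1, Hjv was 0.18 and Slc11a2 0.076 in hepatocyte-like cells, and Hjv was -0.11 and Tfrc 0.11 in endothelial-like cells. Without TMM factors, macrophage-like Tfrc was -0.065, endothelial-like Hjv -0.022 and Slc11a2 -0.064, and erythroid-like Fth1 -0.10 and Tfr2 -0.29. On log2(CPM + 1), macrophage-like Tfrc was -0.081, endothelial-like Slc11a2 -0.079, and erythroid-like Fth1 -0.027 and Tfr2 -0.27. By limma voom, macrophage-like Fth1 was -0.013 and Trf 0.12, endothelial-like Slc11a2 -0.091 and erythroid-like Slc11a2 0.18. With doublets left out, Tfrc was -0.026 in macrophage-like and 0.026 in endothelial-like cells, and erythroid-like Slc11a2 was 0.12. With the Y-linked covariate, endothelial-like Hjv was -0.18 and erythroid-like Slc11a2 0.14. Hepatocyte-like Slc11a2 was 0.38 at 10% mitochondrial UMIs, macrophage-like Tfrc -0.023 at 50 UMIs, and erythroid-like Slc11a2 0.015 with no filter. When each mouse was left out in turn, hepatocyte-like Hjv ran from -0.18 to 0.049 and Slc11a2 from -0.14 to 0.042, macrophage-like Bmp2 from -0.37 to 0.017, Bmp6 from -0.62 to 0.0053, Tfrc from -0.029 to 0.055 and Trf from -0.32 to 0.10, endothelial-like Hjv from -0.20 to 0.35, Slc11a2 from -0.064 to 0.11 and Tfrc from -0.11 to 0.061, and erythroid-like Slc11a2 from -0.21 to 0.13.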
